A study of Ovis aries with 6 samples.

Results

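The let-7 family was examined in the rumen of sheep fetuses carried by underfed and normally fed ewes. Its members were the 10 listed miRNAs whose sequence has GAGGUAG at bases 2 to 8, the stretch called the seed that leads the pairing of a miRNA with its targets. They were 10 of 1253 listed miRNAs, and 7 of them had sheep names (oar-let-7a, oar-let-7b, oar-let-7c, oar-let-7d, oar-let-7f, oar-let-7g and oar-let-7i). The study listed the other 3 as predicted entries (novel_miR_231, novel_miR_549 and novel_miR_428). Whether their sequences carry a name in other species was not looked up. Small RNA of 3 male fetuses of the UN group and 3 of the CON group was sequenced, in 6 libraries. All animals were Hu sheep labelled wild type. UN ewes (labelled TR, restricted feeding) were held at 30% of their baseline intake from gestation day 115 for 15 d, and CON ewes (labelled normal feeding) stayed at the baseline intake. The tissue was taken at day 130 by the study's methods, although the labels give day 115 for all ewes, and the series' title and design text name jejunum and ileum where each sample is labelled rumen. The labels were followed, and they do not say which ewe each fetus came from.

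The let-7 family was found in the nematode Caenorhabditis elegans as a switch of developmental timing, and its sequence is conserved across bilaterian animals. In mammals the mature forms are scarce in early embryos and accumulate as tissues differentiate, while the RNA-binding protein LIN28 holds back the processing of their precursors. Their known targets include MYC, HMGA2 and LIN28 itself, so the family is known as a brake on proliferation.

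The sequences below show what the 10 members share and where they part, since 8 of the 10 differ from oar-let-7a by at least 1 base in the stretch they have in common. The seed is in capitals.
oar-let-7i: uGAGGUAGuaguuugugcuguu
oar-let-7f: uGAGGUAGuagauuguauagu
oar-let-7g: uGAGGUAGuaguuuguacagu
oar-let-7a: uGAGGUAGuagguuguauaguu
oar-let-7b: uGAGGUAGuagguuguguggu
oar-let-7c: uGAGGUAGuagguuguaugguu
novel_miR_231: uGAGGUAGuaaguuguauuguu
oar-let-7d: aGAGGUAGuagguugcauag
novel_miR_549: uGAGGUAGgagguuguauaguug
novel_miR_428: uGAGGUAGuagguuguauaguuua

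Counted from 1 at the 5′ end, with the base of oar-let-7a first, oar-let-7c differed by A19G alone and oar-let-7f by G12A alone. oar-let-7b carried A17G and A19G, oar-let-7g G12U and U18C, and oar-let-7d U1A and U16C. oar-let-7i was the most distant, with G12U, A17G, U18C and A19U. Of the predicted entries, novel_miR_549 carried U9G and novel_miR_231 carried G11A and A19U. novel_miR_428 held the whole oar-let-7a sequence with 2 more bases at its 3′ end. Because members differ by so few bases, reads with a sequencing or editing difference could be counted to a neighbour, and the authors' rule for such reads is not given in the sources used here.

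All 7 sheep-named members matched a miRNA gene by a listed synonym, and not by sequence, in the RefSeq sheep annotation. There MIRLET7A and MIRLET7D lay next to each other within ZNF169, MIRLET7C lay next to MIR99A, MIRLET7F lay within HUWE1 and MIRLET7G within WDR82. A match by name does not show which gene or genes the reads of a member came from. The 3 predicted entries carry IDs from the study's own list, which a search by name could not find. No search by sequence was made, so whether they have a gene there was not tested, and they are given by their IDs.

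The values were the authors' reads per 1000000 assigned reads (RPM), from which the reads themselves could be recovered. The UN libraries held 18731340, 20480062 and 27059374 assigned reads, and the CON libraries 24598457, 18584326 and 35555822. 1 read was worth 0.0281 to 0.0538 RPM. CON replicate 2 stood apart, with an edgeR TMM scaling factor of 1.28 against 0.915 to 1.02 in the other libraries, and with the smallest share of oar-miR-143, the most abundant miRNA, at 29.5% of reads. oar-miR-143, a miRNA of smooth muscle, took 37.7%, 43.8% and 48.5% in UN and 42.3%, 29.5% and 50.0% in CON. Among markers fitting a rumen wall, the epithelial oar-miR-200a stood at 5177 to 7041 RPM in UN and 6382 to 8985 RPM in CON. oar-miR-200b, of the same epithelial group, stood at 4358 to 5523 RPM in UN and 6477 to 7397 RPM in CON, and its groups did not overlap (log2 fold change -0.50, limma adjusted p = 0.84). oar-miR-200c stood at 1379 to 1632 RPM in UN and 1550 to 1935 RPM in CON. oar-miR-133 of striated muscle stood at 160 to 280 RPM, oar-miR-194 of gut and liver endoderm at 111 to 144 RPM and oar-miR-150 of lymphocytes at 3.36 to 6.02 RPM over the 6 libraries. The part of tissue make-up in the results below was not tested, and fewer cells of a type cannot be told apart from less RNA per cell in whole tissue.

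The let-7 family took 9.37%, 9.76% and 9.74% of the assigned reads in the UN libraries, against 9.19%, 11.3% and 8.45% in the CON libraries. The UN values lay inside the CON range, and the means were 9.63% ± 0.218 in UN and 9.65% ± 1.48 in CON (SD, n = 3 each). The reads behind them numbered 1755863, 1999011 and 2635977 in UN and 2260275, 2101568 and 3004942 in CON. Among the 777 seeds in the list, the let-7 seed ranked 3 by mean reads, at 9.64% over all libraries. The seed of oar-miR-143 stood at 42.0%, that of oar-miR-148a at 10.01%, and the next after let-7, that of oar-miR-26a, at 4.36%. In UN replicate 3 and CON replicate 3 the let-7 seed ranked 2.

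The comparison of the family total depended on what it was measured against. With oar-miR-143 taken out of the denominator, the let-7 total was 15.04%, 17.4% and 18.9% in UN and 15.9%, 16.04% and 16.9% in CON, and the groups again overlapped. With library sizes scaled by TMM, which sets the bulk of miRNAs level between libraries, it was 9.60%, 10.6% and 10.4% in UN and 9.03%, 8.85% and 9.24% in CON. On that scale the UN libraries all lay above the CON libraries, and the means were 10.2% ± 0.534 in UN and 9.04% ± 0.197 in CON (SD, n = 3 each), or 9.13% in CON without CON replicate 2. Of all miRNAs tested, 6.00% lay above in this way on that scale. The members did not share the difference evenly. oar-let-7i had the widest gap, with means of 44871 TMM-scaled RPM in UN and 35717 in CON. oar-let-7a was lower in UN, at 11186.1 against 11350.5, and 3 of 10 members had a log2 fold change below 0. Without CON replicate 2 the CON mean of the unscaled share was 8.82%, which put UN higher by 0.13 on the log2 scale. No test was made of the total, since it is a sum over chosen members.

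**Figure D1:**
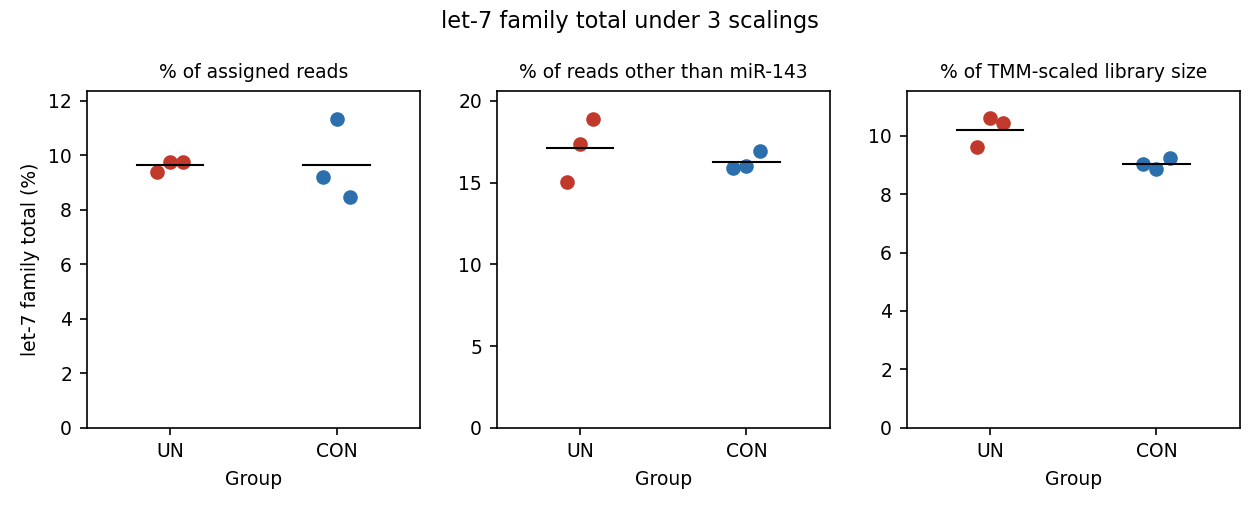
Total of the 10 let-7 members per library on 3 scales, as % of assigned reads (left), % of reads other than oar-miR-143 (middle) and % of the TMM-scaled library size (right), with UN left of CON, points for libraries and lines for means. The CON point at 11.3% in the left panel is CON replicate 2, and only in the right panel do the groups not overlap.

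The order of the 10 members was the same in all 6 libraries, with oar-let-7i highest and novel_miR_428 lowest. oar-let-7i, known in human bile duct epithelium for repressing TLR4, stood at 42483, 43878 and 40602 RPM in UN and 32401, 52037 and 31663 RPM in CON. It was the third most abundant of all 1253 miRNAs. Its CON values were spread 1.64-fold, with CON replicate 2 at the top and the other CON libraries below every UN library.

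oar-let-7f and oar-let-7g followed at about the same level. oar-let-7f, known for pro-angiogenic effects in human endothelial cells, stood at 14794, 16283 and 18187 RPM in UN and 19432, 18940 and 16522 RPM in CON. oar-let-7g stood at 14258, 15035 and 15367 RPM in UN and 15228, 18084 and 13220 RPM in CON. Both overlapped between the groups, and they ranked 10 and 11 among all miRNAs.

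oar-let-7a stood at 10055, 10311 and 11272 RPM in UN and 12580, 11677 and 11488 RPM in CON. Every UN value lay below every CON value, by a small margin between UN replicate 3 and CON replicate 3. oar-let-7b, known in mouse neural stem cells for repressing Hmga2, behaved alike in its ranges, at 5429, 5617 and 5752 RPM in UN and 5857, 6135 and 6070 RPM in CON. oar-let-7c, which shares a transcript with miR-99a in mammals, stood at 5305, 5184 and 4839 RPM in UN and 4978, 4609 and 4132 RPM in CON. The oar-let-7c groups overlapped, with only CON replicate 1 above the lowest UN library.

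The remaining members were at least 5.79-fold below oar-let-7c within any library. novel_miR_231 stood at 695, 621 and 631 RPM in UN and 588, 796 and 602 RPM in CON, and the groups overlapped. oar-let-7d, which represses HMGA2 in human lung epithelium, stood at 543, 510 and 539 RPM in UN and 563, 596 and 596 RPM in CON, with all UN values below all CON values. novel_miR_549 stood at 172, 163 and 219 RPM in UN and 253, 201 and 214 RPM in CON, and overlapped. novel_miR_428 stood at 5.18, 5.32 and 7.54 RPM in UN and 7.64, 7.48 and 6.75 RPM in CON, which also overlapped. These rested on 97, 109 and 204 reads in UN and 188, 139 and 240 reads in CON, the fewest of any member.

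**Figure D2:**
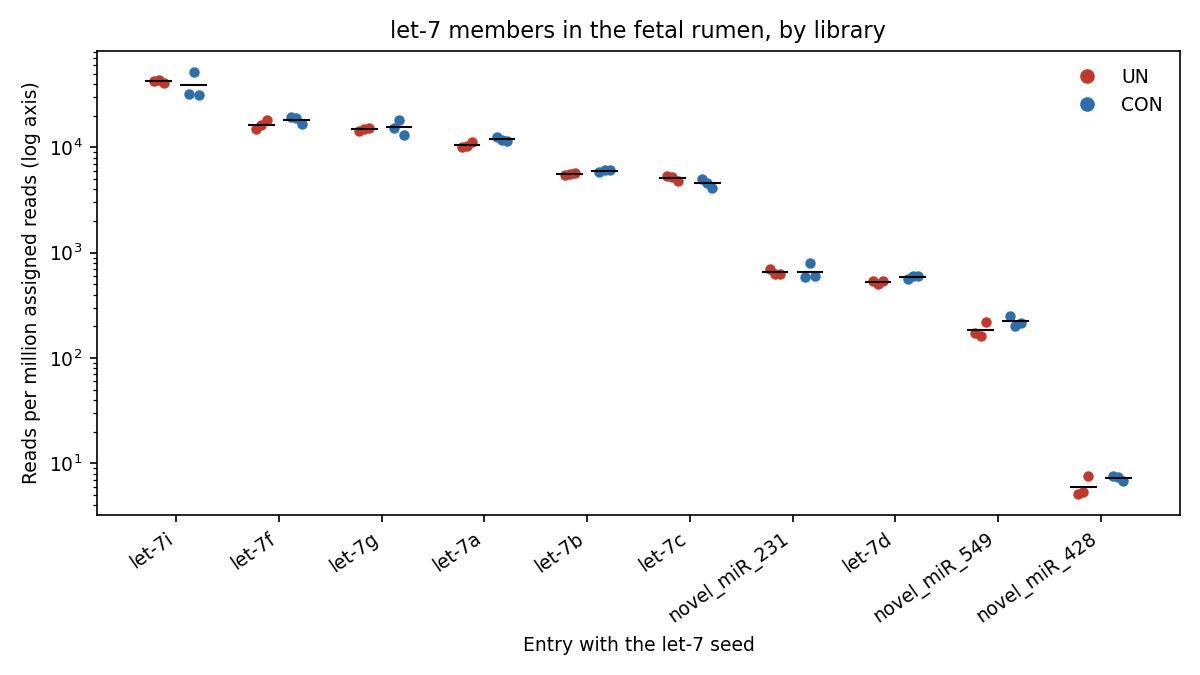
RPM of the 10 let-7 members in each library on a log axis, ordered from the most to the least abundant, with UN left of CON within each member, points for libraries and lines for group means. oar-let-7i lies at 31663 to 52037 RPM and novel_miR_428 at 5.18 to 7.64 RPM, and the points of the groups lie close together for every member.

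Neighbours in this order differed in how far apart they stood. Within a library, oar-let-7i exceeded oar-let-7f by 1.67 to 2.87 times, and oar-let-7a exceeded oar-let-7b by 1.84 to 2.15 times. oar-let-7f exceeded oar-let-7g by only 1.04 to 1.28 times, in the same order in all 6 libraries, although their RPM ranges over the libraries overlapped. novel_miR_231 likewise exceeded oar-let-7d in all 6 libraries, by 1.01 to 1.34 times, with overlapping RPM ranges. In CON replicate 3 their ratio of 1.01 had an exact 95% binomial interval of 0.990 to 1.03, so the order there was within counting error. oar-let-7b and oar-let-7c were also close, at 1.02 to 1.47 times, although their RPM ranges did not meet. In all, 2 of the 9 neighbouring pairs had overlapping ranges. Levels between members carry the ligation and amplification differences of each sequence, which were not measured here.

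As shares of the let-7 total, which do not depend on the library size or on oar-miR-143, oar-let-7i made up 45.3%, 45.0% and 41.7% in UN and 35.3%, 46.0% and 37.5% in CON. The means were 44.0% ± 2.00 in UN and 39.6% ± 5.68 in CON (SD, n = 3 each), and the groups overlapped through CON replicate 2. oar-let-7f made up 15.8%, 16.7% and 18.7% in UN and 21.1%, 16.7% and 19.5% in CON. oar-let-7g varied least of the 3, at 15.5% ± 0.287 in UN and 16.1% ± 0.470 in CON. oar-let-7a averaged 10.95% ± 0.540 in UN and 12.5% ± 1.91 in CON. oar-let-7b averaged 5.82% ± 0.0781 in UN and 6.33% ± 0.879 in CON, and oar-let-7c 5.31% ± 0.346 in UN and 4.79% ± 0.676 in CON (SD, n = 3 each). The 4 leading members together held 86.3% to 89.1% of the family and the 6 leading ones 98.3% to 98.7%, while the 3 predicted entries together held 0.810% to 0.974%.

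The groups did not separate for any member's share, 0 of 10, where 16.4% of all 567 miRNAs tested had a ratio to the let-7 total without overlap between the groups. This changed when CON replicate 2 was left out. Then 7 of the 10 shares did not overlap, where 29.5% of all miRNAs had a ratio to the let-7 total without overlap, with oar-let-7i higher in UN by 7.62 percentage points and oar-let-7a, oar-let-7b, oar-let-7d, oar-let-7f, novel_miR_549 and novel_miR_428 lower in UN. With all libraries the oar-let-7i difference was 4.40 percentage points, and without CON replicate 1 it was 2.24. Without UN replicate 3 there were 3 shares without overlap, where 31.2% of all miRNAs had such a ratio, and leaving out any other single library gave 0 or 1. Shares of one total are tied to each other, so a high oar-let-7i lowers the rest.

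**Figure D3:**
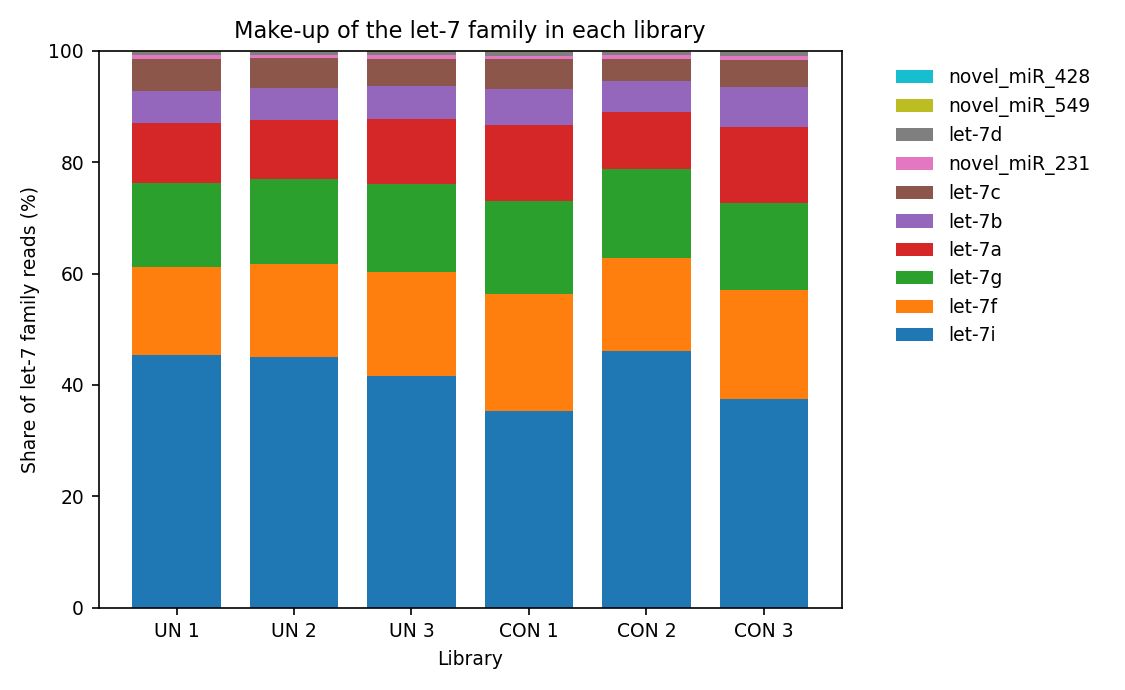
Share of each member in the let-7 reads of a library, in %, stacked from oar-let-7i at the bottom, with the 3 UN libraries left of the 3 CON libraries. oar-let-7i fills 41.7% to 45.3% of the UN bars and 35.3% to 46.0% of the CON bars, where CON replicate 2 is the high value.

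Restricted and normal feeding were compared for each member by limma fitted to log2(RPM + 1) of the 567 miRNAs that had enough reads, among them all 10 members, and the p-values of all 567 were adjusted by Benjamini-Hochberg. On this scale a fold change of a low miRNA is understated. No member passed an adjusted p of 0.05 (0 of 10), and 0% of all miRNAs tested did. At an unadjusted p under 0.05 there were again 0 of 10 members, beside 5.11% of all miRNAs. Adjusted p-values of the members ran from 0.85 to 1.00 (limma). With 3 libraries a group the 95% intervals were wide, reaching down to -0.78 and up to 0.59 over the members, so changes of that size could have gone undetected.

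oar-let-7i had the highest log2 fold change, 0.17 with a standard error of 0.20 and a 95% interval of -0.25 to 0.59 (limma adjusted p = 0.88). oar-let-7c was close to it, at 0.16 with a standard error of 0.18 and an interval of -0.22 to 0.55 (limma adjusted p = 0.85). The other 8 members had values below 0, which was also true of 73.5% of all miRNAs tested, and without CON replicate 2 it was true of 6 members and of 53.4% of the miRNAs tested. oar-let-7a stood at -0.18 (standard error 0.17, limma adjusted p = 0.85), oar-let-7f at -0.16, oar-let-7d at -0.14, oar-let-7b at -0.10, oar-let-7g at -0.05 and novel_miR_231 at -0.02. The lowest were novel_miR_549 at -0.27 (95% interval -0.76 to 0.22) and novel_miR_428 at -0.26 (95% interval -0.78 to 0.27). The median of the members was -0.12, and that of all miRNAs tested was also -0.12.

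The UN libraries all lay below the CON libraries for 3 of 10 members, oar-let-7a, oar-let-7b and oar-let-7d, where 12.3% of all miRNAs did so. That count was also 3 without CON replicate 2, where 13.9% of all miRNAs did so, and 6 without UN replicate 3, where 22.4% did so. They all lay above the CON libraries for 0 of 10, where 1.06% of all miRNAs did so. With TMM scaling these were 0 of 10 below, where 4.06% of all miRNAs lay, and 3 of 10 above (oar-let-7c, oar-let-7i and novel_miR_231), where 6.00% did. TMM scaling moved the median of all miRNAs to 0.01, and then 3 of 10 members and 48.5% of all miRNAs had a log2 fold change below 0. The directions of oar-let-7b, oar-let-7d, oar-let-7f, oar-let-7g and novel_miR_231 therefore flipped with TMM scaling, and that of oar-let-7a with quantile normalization. Those of oar-let-7i, oar-let-7c, novel_miR_549 and novel_miR_428 were kept under every scaling tried (TMM, quantile, and totals without oar-miR-143).

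Relative to TMM, oar-let-7i stood at 43510, 47664 and 43438 scaled RPM in UN and 31834, 40702 and 34615 in CON. Its log2 fold change was 0.34 (95% interval 0.03 to 0.64, limma unadjusted p = 0.033, adjusted p = 0.80). oar-let-7c stood at 5433, 5631 and 5177 scaled RPM in UN and 4891, 3605 and 4517 in CON. Its log2 fold change was 0.33 (limma unadjusted p = 0.048, adjusted p = 0.80). In the count tests on the recovered reads no member passed the adjusted threshold, and oar-let-7i had an unadjusted p of 0.033 with edgeR and 0.050 with DESeq2. Without CON replicate 2 the unscaled log2 fold change of oar-let-7i was 0.40 (limma unadjusted p = 0.012, adjusted p = 0.35). Without CON replicate 1 it was 0.059 and without CON replicate 3 it was 0.043 (limma adjusted p = 0.99 and 0.92). The share of all miRNAs at an unadjusted p under 0.05 was counted only for limma on unscaled RPM of all libraries, at 5.11%. The unadjusted p-values given here therefore have no such share beside them.

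**Figure D4:**
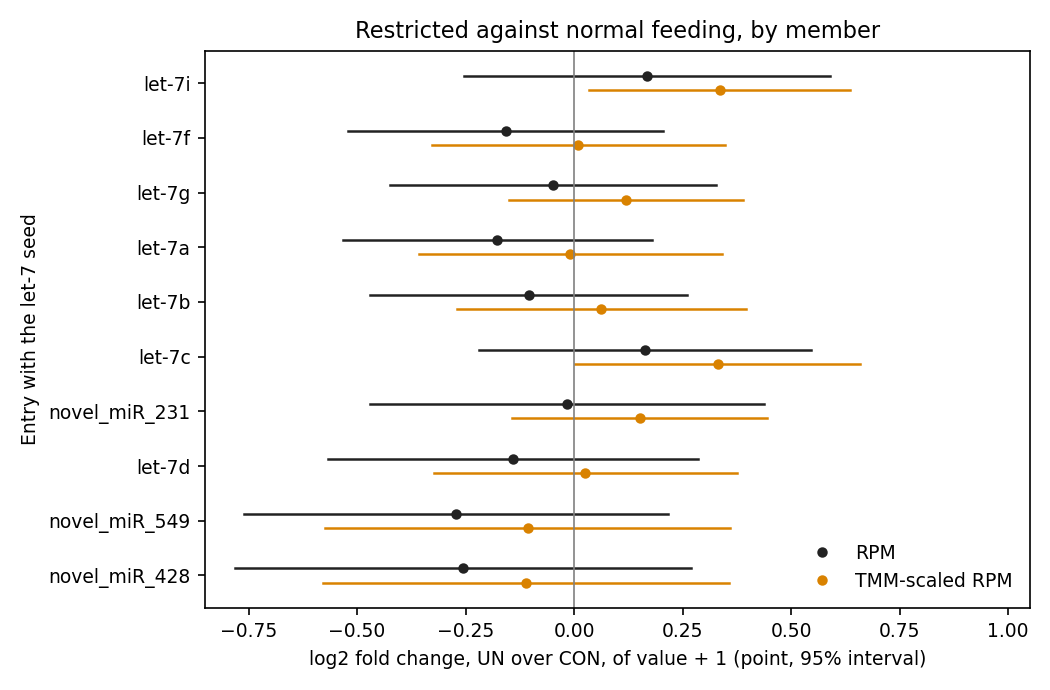
log2 fold change of UN over CON for each member from limma, as points with 95% intervals, on RPM (dark) and on TMM-scaled RPM (orange), with positive values higher in UN. On RPM all 10 intervals cross 0, and on TMM-scaled RPM those of oar-let-7i and oar-let-7c lie above 0, although neither passed the adjusted test. The share of all miRNAs with such an interval on TMM-scaled RPM was not counted.

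Ratios between members within a library need no scaling. Of the 45 pairs of members, 3 had ratios that did not overlap between the groups, against 11.0% of all pairs among the 567 miRNAs, and all 3 involved oar-let-7c. The ratio of oar-let-7a to oar-let-7c was 1.90, 1.99 and 2.33 in UN and 2.53, 2.53 and 2.78 in CON. That of oar-let-7f to oar-let-7c was 2.79, 3.14 and 3.76 in UN and 3.90, 4.11 and 4.00 in CON. oar-let-7c was 9.77, 10.2 and 8.97 times oar-let-7d in UN and 8.84, 7.73 and 6.93 times in CON. Without CON replicate 2 the ratios of 23 of the 45 pairs did not overlap, against 25.5% of all pairs. Without UN replicate 3 the number was 19, against 27.7% of all pairs, and without CON replicate 1 it was 7, against 16.4% of all pairs. The 45 pairs share the same members, so these are not counts of independent pairs. Every pair with oar-let-7i was among the 23.

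Some members kept nearly fixed proportions over the 6 libraries. oar-let-7b averaged 10.6 times oar-let-7d in UN and 10.3 times in CON, and the standard deviation of the log2 ratio was 0.05, the smallest of the 45 pairs. That pair differs at 4 of its first 20 bases. oar-let-7f was 1.44 to 1.62 times oar-let-7a (SD of the log2 ratio 0.07), and these differ by the single base change G12A. A steady ratio did not go with likeness in every pair. oar-let-7a and oar-let-7c also differ by 1 base, and the SD of their log2 ratio was 0.22. oar-let-7a was 18.5 to 22.3 times oar-let-7d, its neighbour in the annotation by the genes matched to their names (SD of the log2 ratio 0.10). oar-let-7i varied most against the others. It was 4.23, 4.26 and 3.60 times oar-let-7a in UN and 2.58, 4.46 and 2.76 times in CON (SD of the log2 ratio 0.34), and CON replicate 2 again lay with the UN libraries. Its ratio to novel_miR_549 had the largest spread of all 45 pairs, with an SD of the log2 ratio of 0.45. novel_miR_428, whose sequence contains that of oar-let-7a, amounted to 0.515 to 0.669 reads per 1000 reads of oar-let-7a in the 6 libraries.

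**Figure D5:**
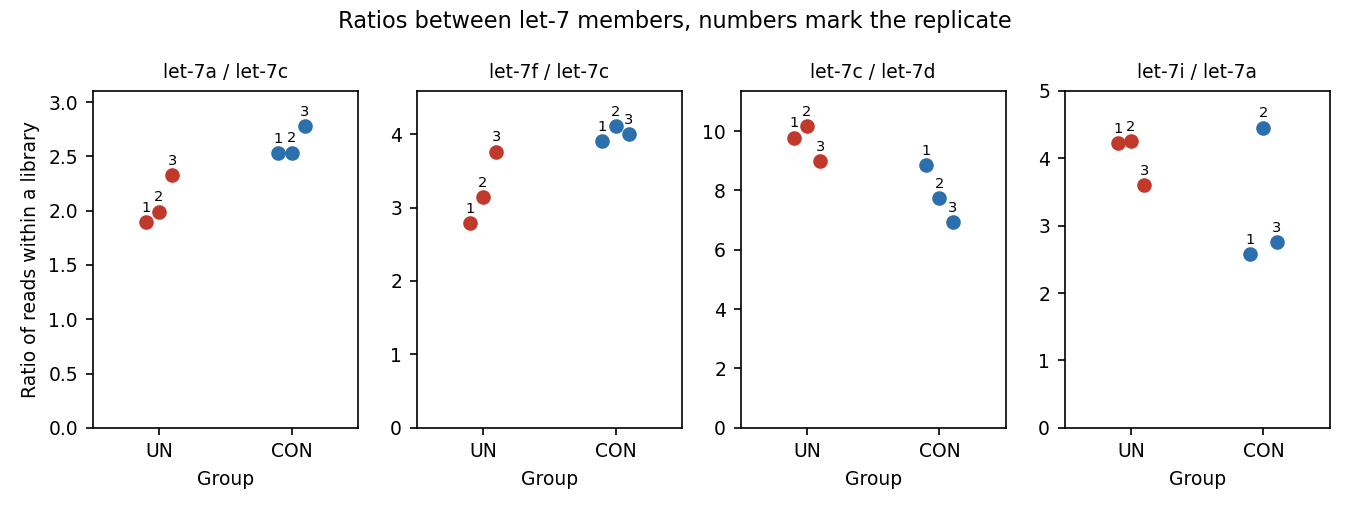
Ratios of reads between let-7 members within each library, UN left of CON, with the replicate number above each point and axes from 0. The first 3 panels are the only pairs of the 45 without overlap between the groups when all libraries are used, such as oar-let-7a over oar-let-7c at 1.90 to 2.33 in UN and 2.53 to 2.78 in CON, and in the last panel CON replicate 2 lies with the UN libraries.

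The 6 companions of the family, chosen for a shared cluster or a related sequence, were compared in the same fit, and 0 of 6 passed the adjusted threshold. Their log2 fold changes lay above 0 for 3 and below 0 for 3, with a median of 0.04. oar-miR-99a, the cluster neighbour of oar-let-7c, stood at 31383, 25145 and 30327 RPM in UN and 24505, 34284 and 22205 RPM in CON. The ratio of oar-let-7c to it was 0.169, 0.206 and 0.160 in UN and 0.203, 0.134 and 0.186 in CON, which overlapped. oar-miR-125b, a member of the same clusters in mammals, stood at 3558, 3892 and 3960 RPM in UN and 3746, 4870 and 3610 RPM in CON. novel_miR_161, which begins as oar-miR-125b does, stood at 1412, 1691 and 1972 RPM in UN and 1450, 2211 and 1567 RPM in CON. novel_miR_1092, which begins as oar-miR-99a does, stood at 924, 1947 and 832 RPM in UN and 744, 921 and 638 RPM in CON. Its log2 fold change of 0.59 (limma adjusted p = 0.84) was measured with UN replicate 2 more than 2 times above each other library.

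The last companions have no let-7 seed, and they are shown because their sequences border on the family.
novel_miR_123: cuauacaaucuauugccuuccc
novel_miR_170: ugagguauuuugugcuguu

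The reverse complement of novel_miR_123 ends with a run of bases found in the 3′ part of oar-let-7f, and the entry stood at 11.2, 8.89 and 8.87 RPM in UN and 10.9, 14.6 and 10.2 RPM in CON. That was 0.488 to 0.773 reads per 1000 reads of oar-let-7f. novel_miR_170 opens like a let-7 but differs in the last base of the seed, so it lay just outside the family. It stood at 3.63, 4.00 and 2.81 RPM in UN and 1.79, 3.66 and 1.69 RPM in CON, with a log2 fold change of 0.45 (limma adjusted p = 0.85). Its end matches that of oar-let-7i, to which it amounted to 0.0533 to 0.0913 reads per 1000.

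The miRNAs whose levels ran most like the let-7 total were sought among 142 others with a mean of at least 100 RPM, by the Pearson correlation of log2 values over the 6 libraries, as a description with no test. They were novel_miR_62 (r = 0.97), oar-miR-370-3p (r = 0.96) and novel_miR_1014, novel_miR_878 and novel_miR_594 (r = 0.95 each), the last of which share a single sequence. All 5 had their highest value in CON replicate 2, such as novel_miR_62 at 547, 556 and 546 RPM in UN and 486, 715 and 468 RPM in CON. oar-miR-143 came last of the 142, at r = -0.81, and it has the lowest share in that library. Over the other 5 libraries the coefficients were 0.85 to 0.91 for the 5 miRNAs and -0.33 for oar-miR-143. The 6 points share their totals, since every RPM is a share of the same reads. Within the family, oar-let-7g (r = 0.96) and oar-let-7i (r = 0.90) ran with the total, while oar-let-7f (r = 0.38) and oar-let-7a (r = -0.00) did so less, and these values are not independent of the total they belong to.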

How the data were processed

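Small RNA libraries of fetal rumen (3 UN and 3 CON, 1 per fetus) were compared. The authors selected RNAs of 18 to 30 nt, sequenced them single-end, used Bowtie2 to place the reads on a sheep genome and listed known and predicted miRNAs. The labels and the methods name different library kits. The program of prediction is not given in the sources used here. The deposited values are RPM made by the authors, scaled to sum to 1000000 over the 1253 listed miRNAs in each library, with no correction for length despite a column name of TPM. All of them (100%) were whole multiples of the value of 1 read, within 0.001 reads, and the reads were so recovered. Totals count assigned reads only. The exact binomial interval of a ratio of reads covers counting error only, while limma's intervals rest on the spread between fetuses. With 3 fetuses a group, limma's p-values set the difference between the groups against the spread within them. That spread is estimated with help from all miRNAs tested.

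Groups came from the treatment characteristic in the labels, although the labels' treatment protocol gives restricted feeding for all samples. log2(RPM + 1) was compared with limma 3.58.1 (trend) in R 4.3.3, over the 567 miRNAs kept by edgeR 4.0.16 filterByExpr on the recovered reads (minimum count 10, minimum total 15), with Benjamini-Hochberg adjustment. edgeR's quasi-likelihood test and DESeq2 1.42.0 on the recovered reads were alternatives, which called 0 members each. So were quantile normalization, TMM-scaled RPM, the exclusion of oar-miR-143 from the totals, other pseudocounts, no filter, a replicate block and leaving out each library. Sequences come from the study's supplementary list of miRNAs. Gene neighbours come from RefSeq's annotation of the Rambouillet assembly, which may not be the authors' build, so no coordinates are given. Named miRNAs were the 10 members, 6 companions, 7 cell type markers and the 5 most alike in level. Members and lists were chosen with earlier results of these data known. The fits were also run on simulated reads with planted changes larger than the fold changes of the members on RPM. No simulated library was made to stand apart as CON replicate 2 does. That run therefore does not show how well changes as small as those of the members would be found here. Libraries of the same group were not duplicates, since their reads differed by a chi-square of at least 437 per degree of freedom.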

Additional observations from a re-analysis of the deposited data

How the results depend on the processing

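No member passed the adjusted threshold under any alternative, and the lowest adjusted p was 0.35 (limma without CON replicate 2). The number of members with a log2 fold change below 0 was 8 on RPM and 3 with TMM-scaled RPM, 5 with quantile normalization, 3 with edgeR and 3 with DESeq2. Leaving out each library gave 6 to 8. Of all miRNAs tested, 73.5% lay below 0 on RPM, 48.5% with TMM-scaled RPM and 53.4% without CON replicate 2. That share was not counted for the other settings, so their counts are not particular to the members. The number with every UN library below every CON library was 3 on RPM, 0 with TMM-scaled RPM, 0 with oar-miR-143 left out of the totals, and 3 to 6 without single libraries. The 6 arose without UN replicate 3, where 22.4% of all miRNAs did so. The share of all miRNAs was 12.3% on RPM and 4.06% with TMM-scaled RPM, and it was not counted with oar-miR-143 left out. Signs turned positive for oar-let-7b (0.063 with TMM, 0.052 with edgeR, 0.061 with DESeq2, 0.049 with quantile normalization), oar-let-7d (0.026 with TMM, 0.013 with edgeR, 0.021 with DESeq2), oar-let-7f (0.0099 with TMM, 0.0091 with edgeR, 0.023 with DESeq2) and oar-let-7a (0.10 with quantile normalization). They also did for oar-let-7g (0.12 with TMM, 0.12 with edgeR, 0.13 with DESeq2, 0.0096 without oar-miR-143) and novel_miR_231 (0.15 with TMM, 0.15 with edgeR, 0.16 with DESeq2, 0.042 without oar-miR-143, 0.084 with quantile normalization). Without single libraries oar-let-7g ran from -0.16 to 0.069 and novel_miR_231 from -0.094 to 0.12. The cause was not tested beyond the change of scale itself. The family total differed by -0.0241 percentage points (UN minus CON), by 0.818 with oar-miR-143 left out, and by -0.62 to 0.81 without single libraries. Other pseudocounts and no filter on low values kept all 10 signs. Same-numbered libraries did not deviate together (r of -0.07, 0.07 and 0.19), so the numbers were not taken as pairs, and a replicate block kept all 10 signs, with 8 below 0 and 0 members called. The number of pairs of members with separated ratios, 3 with all libraries, was 3 to 23 without single libraries, an alternative chosen after seeing the data, as was the likeness to the total without CON replicate 2. Depth limits novel_miR_428, at 97 to 240 reads, and the order of novel_miR_231 and oar-let-7d in CON replicate 3.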
